A study of Mus musculus with 35 samples.

Results

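The integrated stress response genes examined here are Atf3, Atf4, Atf5, Ddit3, Trib3, Chac1, Asns, Sesn2, Nupr1 and Ppp1r15a. These 10 genes were chosen by symbol, as the transcription factors, effectors and feedback regulators of the pathway, from the 32544 genes of the deposited count tables. All 10 had a row. Counts came from whole hippocampus of adult male C57BL/6JOlaHsd mice, 7 to 9 weeks old, that received either kainic acid in the amygdala (IAKA, a glutamate receptor agonist that triggers status epilepticus) or PBS in the same place. IAKA mice were given lorazepam after the seizures began. Hippocampi were taken 24 hours or 2 weeks after the injection. From each mouse, RNA was sequenced as total RNA (input), after pulldown with an antibody against N6-methyladenosine (m6A), or both ways. At 24 hours there were 5 IAKA and 3 PBS m6A libraries, and 3 IAKA and 1 PBS input libraries with at least 100000 counts. At 2 weeks there were 6 IAKA and 5 PBS m6A libraries, and 6 IAKA and 3 PBS input libraries.

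In the integrated stress response, kinases that sense unfolded protein, amino acid shortage, double-stranded RNA or heme shortage phosphorylate the translation factor eIF2. Protein synthesis then falls in general, while the mRNA of the transcription factor ATF4 is translated more. ATF4 and its partners switch on genes for amino acid supply, redox balance and, under lasting stress, cell death, and a phosphatase subunit encoded by Ppp1r15a reverses the signal. In the hippocampus the response is studied in synaptic plasticity and in seizure-induced injury.

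ATF4 binds composite elements (CAREs) near many of its targets, so the gene starts were searched for the core of that element. The core was spelled TGATGNAA and searched on both strands from 250 bases before to 50 bases after each RefSeq gene start (GRCm38.p6, the assembly of mm10). It was found in 5 of the 10 genes (Asns, Atf3, Chac1, Nupr1 and Trib3), against 4.51% of 27025 genes with such a window. The cyclic AMP response element core, TGACGT on either strand, was found in Atf3 and Ppp1r15a, against 8.37% of genes. A match describes the letters only, and no match says only that these letters are not in the window. Because the 10 genes were chosen as members of the pathway of ATF4, their share beside that of all genes is not a test. The windows below, on the strand of each gene, are those of the 2 genes with the highest IAKA to PBS differences (Nupr1 and Atf3) and of 2 genes that carry the same core (Chac1 and Asns), with the core in capitals.
Nupr1, chr7:126625562-126625591, minus strand: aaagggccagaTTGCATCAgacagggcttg
Atf3, chr1:191183425-191183454, minus strand: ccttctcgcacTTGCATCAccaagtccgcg
Chac1, chr2:119351038-119351067, plus strand: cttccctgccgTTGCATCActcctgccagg
Asns, chr6:7693214-7693243, minus strand: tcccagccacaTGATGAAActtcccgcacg
The first 3 genes hold the identical core on the opposite strand to the gene, starting 110 bases before the start of Nupr1, 110 before that of Atf3 and 193 before that of Chac1. Asns holds a core that differs at the free base, on its own strand, 23 bases before its start.

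The m6A libraries held 1652933 to 34564536 counts (median 15291875) and the 13 input libraries used held 3057578 to 12694434 (median 5498360). Levels are given as CPM, the counts of a gene scaled to a common library total. The 2 shallowest m6A libraries were those of IAKA mice 67 (1979606 counts) and 98 (1652933) at 24 hours. Mouse 8 of the same group stood apart, with 16.4% mitochondrial counts in its m6A library and 17.4% in its input library. Markers of hippocampal neurons and glia were detected in every group, with none of the 8 excitatory neuron markers at 0. The assay was named in the data columns for 8 libraries and read from the pattern of the column names for the other 27. An m6A library depends both on the amount of a transcript and on how much of it was pulled down.

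At 24 hours Nupr1 and Atf3 had the highest levels relative to PBS among these genes in the m6A libraries, and neither passed the test across all genes. Nupr1, which encodes a small stress-induced chromatin protein and lies at chr7:126623246-126625470 (mm10), was at 9.96, 12.01 and 8.51 CPM in PBS mice 1, 71 and 73. It was at 50.3, 39.4, 75.4, 78.6 and 36.9 CPM in IAKA mice 8, 67, 79, 97 and 98. Every IAKA library lay above every PBS library, including the shallow libraries and that of mouse 8. The mean was 56.1 ± 19.7 CPM (SD, n = 5) against 10.2 ± 1.76 (SD, n = 3). In edgeR's quasi-likelihood test the log2 fold change was 2.47 (SE 0.35) with a Benjamini-Hochberg adjusted P of 0.0830. Leaving out each of the 8 libraries in turn gave log2 fold changes of 2.32 to 2.57 and adjusted P from edgeR of 0.0266 (without IAKA mouse 8) to 0.638 (without PBS mouse 73), with 1 of the 8 fits calling it.

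Atf3 encodes a transcription factor that is induced by ATF4 and also by neuronal activity and axonal injury (chr1:191170296-191183333). Its level was 0.886, 2.26 and 0.644 CPM in PBS mice 1, 71 and 73. In IAKA mice 8, 67, 79 and 97 it was at 13.7, 9.09, 18.5 and 12.5 CPM, and in mouse 98 at 0.605 CPM, which is 1 count. The first 4 IAKA libraries lay above all PBS libraries and that of mouse 98 lay below all of them. Because 3 counts of that shallow library amount to 1.81 CPM, its value does not separate it from the PBS mice. The edgeR log2 fold change was 3.16 (SE 0.78, adjusted P = 0.376), and 3.39 without mouse 98 (SE 0.52, adjusted P = 0.128). With each of the 8 libraries left out in turn the adjusted P ran from 0.128 to 1.00, and none of these fits called it.

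Atf4 itself, the central transcription factor of the response (chr15:80255184-80257545), was at 64.1, 59.3 and 39.8 CPM in PBS mice 1, 71 and 73. It was at 71.8, 111.1, 95.9, 88.5 and 64.7 CPM in IAKA mice 8, 67, 79, 97 and 98. The groups did not overlap, but the lowest IAKA library (64.7 CPM) was close to the highest PBS library (64.1 CPM). The edgeR log2 fold change was 0.65 (SE 0.26, adjusted P = 0.822). Nupr1 and Atf4 were thus 2 of the 9 tested genes with all IAKA libraries above all PBS libraries, against 2.62% of the 16470 genes tested. None of the 9 lay wholly below, against 1.09%.

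The other transcription factors overlapped between groups. Ddit3, which encodes the pro-apoptotic factor CHOP (chr10:127290793-127296291), was at 33.1, 56.6 and 36.2 CPM in PBS mice 1, 71 and 73 and at 35.1, 45.0, 93.5, 66.1 and 50.8 CPM in IAKA mice 8, 67, 79, 97 and 98. Atf5, an ATF4 relative linked to mitochondrial stress (chr7:44812256-44816658), was at 3.69, 8.60 and 11.7 CPM in PBS and at 2.08, 8.59, 15.1, 20.8 and 6.05 CPM in IAKA mice in the same order. Mouse 8 was the lowest of all 8 libraries for Atf5 and mice 79 and 97 were the highest for both genes. IAKA mice 79 and 97 and PBS mice 71 and 73 shared the column prefix 4 described below. The edgeR log2 fold changes were 0.44 (SE 0.31) for Ddit3 and 0.33 (SE 0.60) for Atf5, each with an adjusted P of 0.983.

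Among the effectors, Chac1, which degrades glutathione (chr2:119351242-119354326), was at 1.55, 2.22 and 1.57 CPM in PBS mice 1, 71 and 73 and at 4.75, 1.01, 6.50, 3.34 and 2.42 CPM in IAKA mice 8, 67, 79, 97 and 98. Sesn2, an inhibitor of mTORC1 signalling (chr4:132492804-132510456), was at 3.69, 7.85 and 6.01 CPM in PBS and 7.49, 7.58, 19.0, 8.32 and 4.84 CPM in IAKA mice in that order. For Chac1 4 IAKA libraries lay above all PBS libraries and mouse 67, with 2 counts, lay below, and for Sesn2 the group mean rested on mouse 79. The log2 fold change of Sesn2 was 0.71 (SE 0.44) with all libraries and 0.29 without mouse 79, and that of Chac1 was 1.13 (SE 0.57). Asns, asparagine synthetase (chr6:7675165-7693209), was at 33.6, 16.7 and 18.0 CPM in PBS mice and at 23.6, 64.2, 26.6, 22.9 and 55.0 CPM in IAKA mice in the same order. Here the 2 shallowest libraries, mice 67 and 98, were the highest, and the other IAKA libraries lay within the PBS range. Ppp1r15a, the feedback phosphatase subunit GADD34 (chr7:45522917-45526268), was at 7.97, 19.1 and 15.0 CPM in PBS mice and at 9.79, 11.6, 28.3, 27.0 and 9.68 CPM in IAKA mice. Trib3, a pseudokinase that restrains ATF4 (chr2:152337425-152344060), never exceeded 2.16 CPM (69 counts, mouse 79) and had too few counts to be tested in any comparison.

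**Figure D1:**
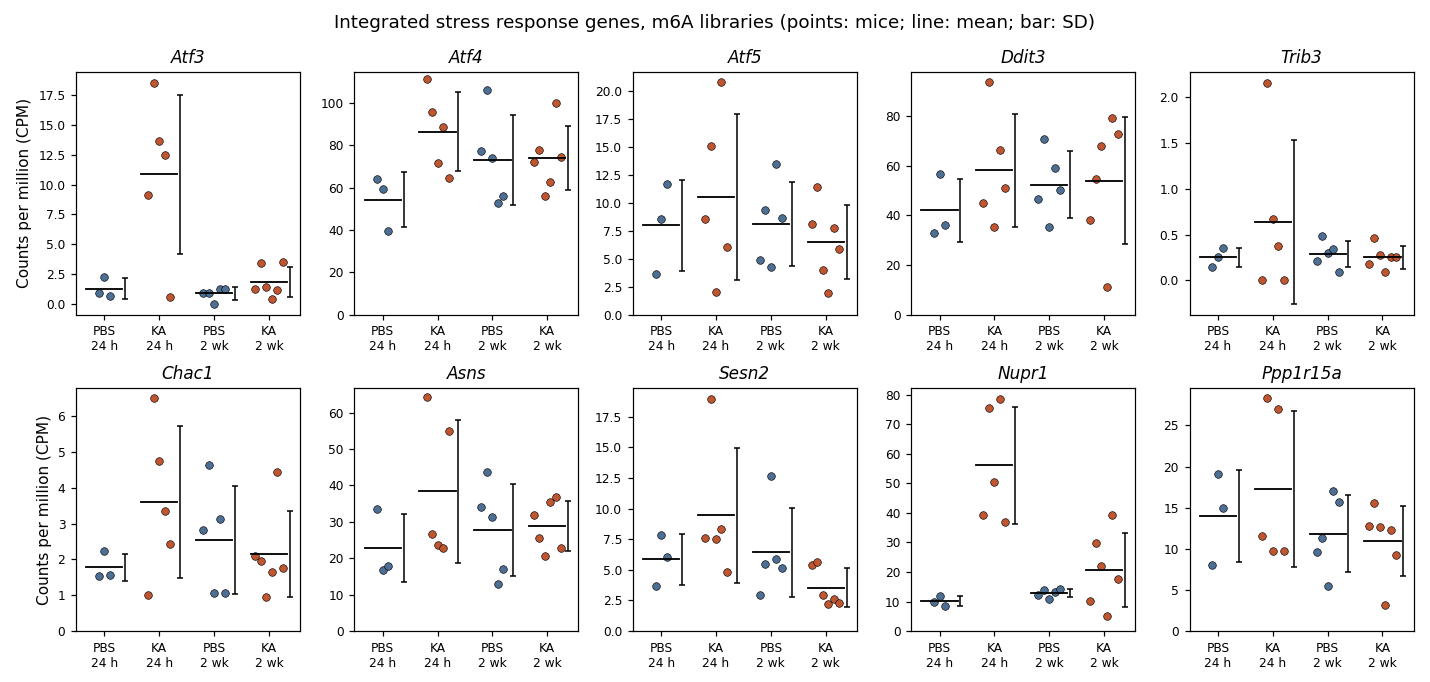
Level of each integrated stress response gene in the m6A libraries. Each point is 1 mouse, in CPM on a linear axis that differs between panels, with the group mean as a line and the SD as a bar beside it. In the Nupr1 panel the 5 IAKA libraries of 24 hours lie between 36.9 and 78.6 CPM, above the 3 PBS libraries (8.51 to 12.01), and in the Atf3 panel 4 of 5 do so.

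In the m6A libraries at 24 hours, edgeR called none of the 9 tested genes at an adjusted P of 0.05, where it called 0.00607% of all genes (1 of 16470, Tm4sf1, named after its value was seen). At an unadjusted P of 0.05, 3 of the 9 passed (Nupr1, Atf3 and Atf4), as did 5.31% of all genes. DESeq2 called 2 (Atf3 and Nupr1) among 156 genes in all, and limma's voom with quality weights called 3 (Atf3, Atf4 and Nupr1) among 1120. All 9 log2 fold changes were above 0, as were 58.0% of those of all genes, and their median was 0.69 against 0.083 over all genes. The highest IAKA library was that of mouse 79 for 6 of the 10 genes. That count includes Trib3, which was not tested, and the share over all genes was not computed. The numeric prefix of the data columns, which may mark a library set, was spread unevenly: PBS libraries had prefixes 4 and 5, IAKA libraries 3 and 4. Within prefix 4 alone (IAKA mice 79 and 97 against PBS mice 71 and 73) edgeR gave log2 fold changes of 2.79 for Nupr1 (adjusted P = 0.00387) and 3.21 for Atf3 (adjusted P = 0.0335). The rest of the tested genes ran from 0.39 (Asns) to 1.27 (Chac1) there, with edgeR adjusted P of 0.0771 (Atf4) to 0.289 (Asns). With the prefix as a block over all 8 libraries the edgeR values for Nupr1 and Atf3 were 2.79 (adjusted P = 0.241) and 3.28 (adjusted P = 0.857). Only prefix 4 held both treatments, so the block difference rests on the same mice and is not a second estimate.

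Cell type markers differed between the same libraries. The summed level of 6 endothelial markers was 205 to 277 CPM in PBS and 294 to 471 CPM in IAKA mice at 24 hours. That of 7 infiltrating leukocyte markers was 10.9 to 36.1 against 25.2 to 79.5 CPM, that of 7 astrocyte markers 2865 to 3693 against 1063 to 5293 CPM, and that of 8 excitatory neuron markers 2425 to 4490 against 889 to 3133 CPM. Oligodendrocyte markers (6) summed to 1786 to 3699 against 1322 to 2711 CPM, microglia and macrophage markers (9) to 157 to 236 against 131 to 393 CPM, and choroid plexus markers (5) to 44.8 to 599 against 28.2 to 973 CPM. Inhibitory neuron markers (7) summed to 270 to 387 against 227 to 587 CPM, blood markers (5) to 7.73 to 17.4 against 7.10 to 27.1 CPM and thalamus markers (5) to 127 to 141 against 101 to 161 CPM. The endothelial sum alone did not overlap between treatments. No list had a marker at 0 in every library of either group. No marker was called by edgeR, and log2 fold changes were above 0 for 5 of 6 endothelial, 6 of 6 tested leukocyte, 4 of 7 astrocyte and 1 of 8 excitatory neuron markers. They were above 0 for 1 of 6 oligodendrocyte, 7 of 9 microglia and macrophage, 5 of 5 choroid plexus, 5 of 7 inhibitory neuron, 3 of 4 tested blood and 3 of 5 thalamus markers. Over all genes 58.0% were above 0. The part of cell composition in the levels of Nupr1 and Atf3 was not tested. In whole tissue fewer cells of a type and less RNA per cell cannot be told apart.

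The input libraries show the same genes without pulldown, but at 24 hours they rest on 1 PBS mouse. Atf3 was at 0.551 CPM (7 counts) in PBS mouse 1 and at 7.97, 7.64 and 1.54 CPM in IAKA mice 8, 67 and 98. Nupr1 was at 4.88 CPM in PBS mouse 1 and at 18.4, 13.6 and 12.3 CPM in the IAKA mice in that order. Both lay above the PBS mouse in 3 of 3 IAKA mice, and mouse 98 was the lowest IAKA library for Atf3 in input as in the m6A pulldown. Ppp1r15a was at 7.33 CPM against 8.67, 9.46 and 8.70, and Asns at 64.7 CPM against 47.9, 36.7 and 38.1. These 2 genes completed the set whose IAKA libraries lay all to one side: 3 of the 9 tested genes lay above the PBS mouse (10.9% of 17644 genes tested) and 1 below (33.1%).

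The remaining genes straddled that PBS mouse or stayed near it at 24 hours in input. Atf4 was at 47.8 CPM against 59.3, 67.7 and 46.8, and Ddit3 at 19.0 CPM against 14.3, 18.0 and 20.2 in IAKA mice 8, 67 and 98. Atf5 was at 2.52 CPM against 2.42, 9.28 and 8.45, with mouse 8 at the PBS level and the other IAKA mice above it. Sesn2 was at 4.10 CPM against 7.57, 4.55 and 3.58, and Chac1 at 1.58 CPM against 2.42, 1.64 and 1.54. Fitted with the 2-week input groups to estimate the spread, the edgeR log2 fold changes were 3.68 for Atf3 (SE 1.22, adjusted P = 0.396), 1.93 for Nupr1 (SE 0.67, adjusted P = 0.411) and 1.64 for Atf5 (SE 0.66, adjusted P = 0.487). The median over all genes in that fit was 0.27, with 65.9% of log2 fold changes above 0. Among cell type markers, 4 of 8 excitatory neuron (median -0.05) and 1 of 7 inhibitory neuron markers (-0.29) were above 0. So were 1 of 6 oligodendrocyte (-0.50), 5 of 5 choroid plexus (0.70) and 3 of 5 thalamus markers (0.73), none called. In the same fit log2 fold changes were above 0 for 6 of 6 endothelial (median 1.72), 6 of 6 tested leukocyte (1.67), 5 of 5 blood (1.87), 7 of 9 microglia and macrophage (1.06) and 6 of 7 astrocyte markers (0.93), none of them called. The summed levels of the PBS mouse and the 3 IAKA mice were 885 against 434 to 1207 CPM for endothelial, 24.0 against 25.9 to 59.6 for leukocyte, 7.72 against 11.8 to 38.7 for blood, 103 against 77.9 to 174 for microglia and macrophage and 2255 against 870 to 4511 for astrocyte markers. Excitatory neuron markers summed to 2472 against 940 to 2551 CPM and inhibitory neuron markers to 589 against 346 to 379 CPM. Oligodendrocyte markers summed to 2346.5 against 717 to 1830 CPM. Choroid plexus markers were at 286 against 78.1 to 534 CPM and thalamus markers at 132.5 against 97.1 to 134 CPM. The part of these cell types in the Atf3 and Nupr1 levels of input was not tested. The other 6 tested genes had log2 fold changes of -0.33 (Asns) to 0.72 (Sesn2). No gene of the 9 and no gene of all 17644 (0%) was called by edgeR, with 3 of the 9 (Atf3, Nupr1 and Atf5) and 9.23% of all genes at an unadjusted P of 0.05. DESeq2 called none of the 9 and 201 genes in all, and voom called Atf5 and Nupr1 among 1076 genes.

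**Figure D2:**
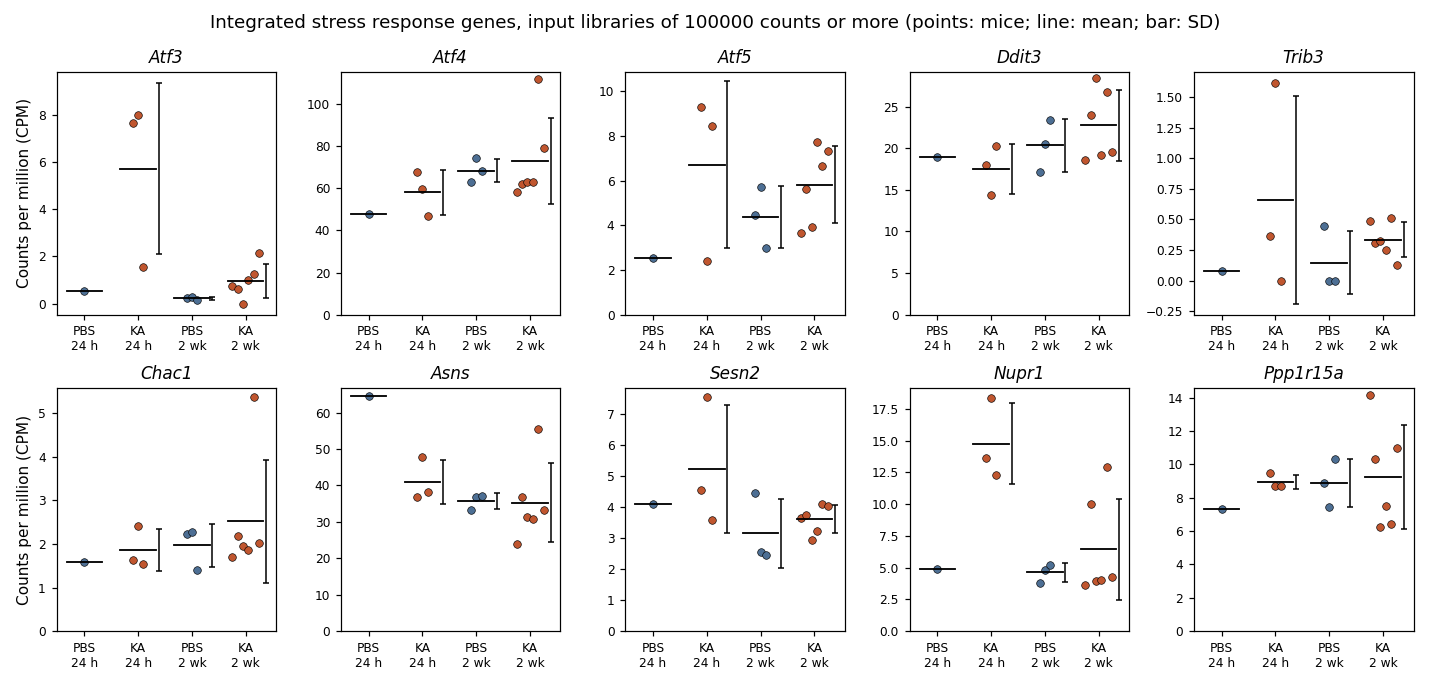
Level of each gene in the input libraries with at least 100000 counts. Axes and symbols are those of the plot of m6A libraries, and the PBS group of 24 hours is 1 mouse with no SD. Nupr1 lies at 12.3 to 18.4 CPM in the 3 IAKA mice of 24 hours, against 4.88 CPM in the PBS mouse.

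At 2 weeks none of the 10 genes separated the treatments. Prefixes were uneven here too: PBS m6A libraries had 4 and 5, IAKA ones 3 and 5. The PBS input libraries were all of the first input file set, whereas the IAKA ones were of both. In the m6A libraries Nupr1 was at 12.1, 13.9, 10.9, 13.4 and 14.1 CPM in PBS mice 2, 3, 4, 50 and 78, and ran from 5.00 to 39.4 CPM (median 19.8) in the 6 IAKA mice. The PBS mice lay close together, whereas 4 IAKA mice lay above all of them and the other 2 below. Mouse 6, the lowest at 5.00 CPM, also had 17.5% mitochondrial counts. The edgeR log2 fold change of Nupr1 was 0.71 (SE 0.38, adjusted P = 0.875), and 0.44 without IAKA mouse 7.

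Atf3 had 0.936, 0.916, 0, 1.202 and 1.27 CPM in the m6A libraries of PBS mice 2, 3, 4, 50 and 78 and 0.380 to 3.47 CPM (median 1.30) in IAKA mice at 2 weeks. The 0 of mouse 4 allows up to 0.456 CPM (3 counts, counting error only). Sesn2 was at 2.95, 5.50, 12.6, 5.86 and 5.17 CPM in PBS mice and 2.22 to 5.67 CPM (median 2.79) in IAKA mice. The groups overlapped for both genes, and the log2 fold changes were 1.08 for Atf3 (SE 0.61) and -0.79 for Sesn2 (SE 0.38), each with an edgeR adjusted P of 0.875. The Sesn2 value rested in part on PBS mouse 4 (12.6 CPM), without which the log2 fold change was -0.40. Atf4 had almost the same mean in both groups, 73.9 ± 15.1 CPM in IAKA (SD, n = 6) and 73.3 ± 21.3 in PBS (SD, n = 5), with an interval of the log2 fold change (0.08) from -0.35 to 0.52 at 2 SE on either side. Ddit3 (log2 fold change 0.09), Asns (0.14), Ppp1r15a (-0.07), Chac1 (-0.20) and Atf5 (-0.27) also overlapped. The PBS values of these 5 genes ran from 35.1 to 70.8, 12.8 to 43.6, 5.47 to 17.1, 1.06 to 4.64 and 4.26 to 13.5 CPM. The IAKA values ran from 11.02 to 79.3, 20.5 to 36.9, 3.22 to 15.5, 0.951 to 4.45 and 1.93 to 11.4 CPM in the same order.

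In the 2-week input libraries Nupr1 was at 3.78, 4.85 and 5.24 CPM in PBS mice 2, 3 and 4 and at 3.66 to 12.9 CPM (median 4.14) in IAKA mice. Mice 7 (12.9 CPM) and 42 (9.99 CPM) were the IAKA mice above the PBS range, and the same mice held the highest Nupr1 levels in the m6A libraries (39.4 and 29.9 CPM). Atf4 was at 62.9, 74.1 and 67.8 CPM in PBS and 57.9 to 111.7 CPM (median 62.8) in IAKA mice. The 7 genes tested in input at 2 weeks had log2 fold changes of 0.0047 (Asns) to 0.52 (Atf5). Atf3, Chac1 and Trib3 had too few counts there. All 10 genes overlapped between treatments at 2 weeks in both assays, where 0.26% of genes lay wholly above and 0.334% wholly below in m6A libraries, and 2.64% and 3.8% in input. In neither assay did edgeR call a gene of the 10 or any gene at all (0%), none of the 10 passed an unadjusted P of 0.05 (5.01% of all genes in m6A and 14.1% in input), and DESeq2 and voom called none of them.

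**Figure D3:**
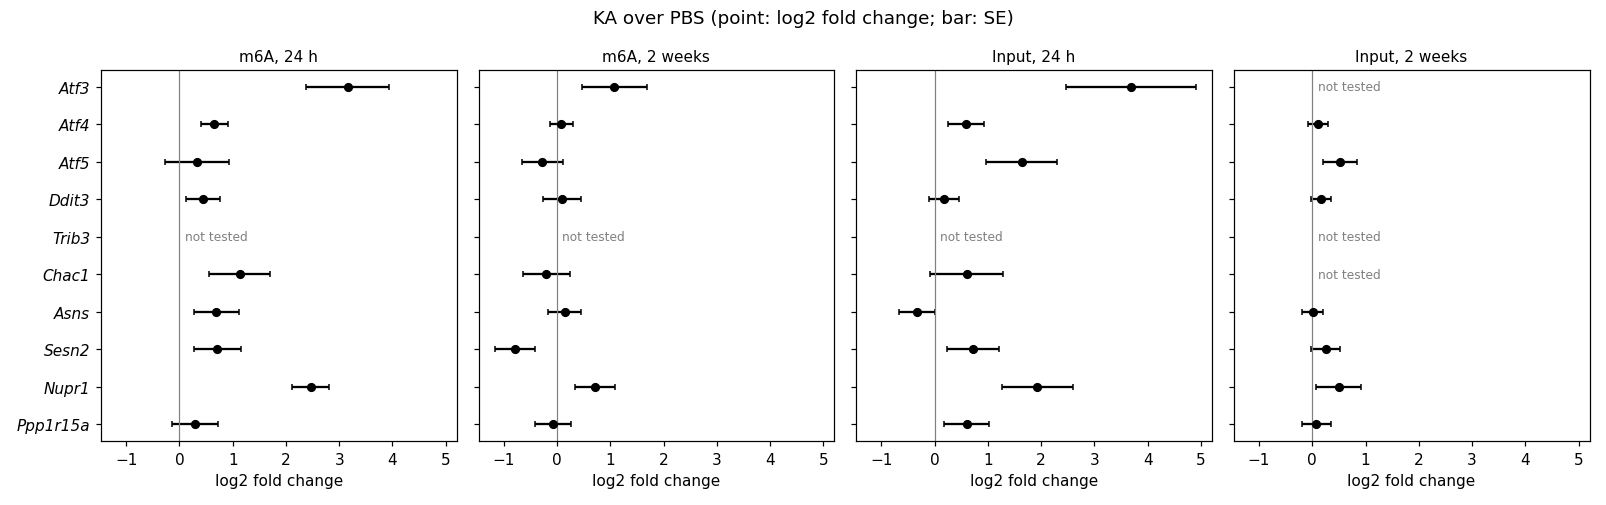
edgeR log2 fold change of IAKA over PBS for each gene in the m6A and input libraries at each time, with the SE as a bar. Atf3 and Nupr1 lie farthest to the right at 24 hours (3.16 and 2.47 in m6A, 3.68 and 1.93 in input), and no point has an adjusted P below 0.05.

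The change of the IAKA effect between times was tested as an interaction in the m6A libraries. All 9 log2 differences, 2 weeks minus 24 hours, were below 0, whereas 39.3% of those of all genes were above 0. Their median was -0.62 against -0.11 over all genes. The values were -2.08 for Atf3 (SE 0.99), -1.76 for Nupr1 (SE 0.55), -1.51 for Sesn2 (SE 0.61) and -1.33 for Chac1 (SE 0.73). The adjusted P from edgeR was 1.00 for each of the 9 genes. None was thus called, against 0.00573% of 17440 genes (Tm4sf1 again), although 3 of the 9 (Atf3, Nupr1 and Sesn2) and 2.45% of all genes passed an unadjusted P of 0.05, and DESeq2 and voom called none. These differences share their 24-hour and 2-week libraries with the comparisons above.

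Pulldown relative to input was read at 2 weeks, where both assays had several mice of each treatment. The main fits did not pair the libraries of a mouse. They included the m6A libraries of PBS mice 50 and 78, for which no input library was used. The m6A and input libraries came in separate file sets, which may mark library sets. A difference between these sets cannot be told apart from the pulldown. Nupr1 had a higher CPM in the m6A library than in the input library of the same mouse in 6 of 6 IAKA mice, by 1.25 to 5.58 times (median 3.02), and in 3 of 3 PBS mice, by 2.09 to 3.20 times. Ddit3 did so in 5 of 6 IAKA mice (0.574 to 3.72 times, median 2.33) and in 3 of 3 PBS mice (1.499 to 3.45 times). The Ddit3 exception was mouse 6, at 11.02 CPM in m6A against 19.2 CPM in input. CPM ratios carry no scaling beyond the library total. Scaled that way, the all-gene median log2 fold change of m6A over input was 0.31 in PBS and 0.19 in IAKA mice. The share of all genes with ratios above 1 in every mouse was not computed. At 24 hours the 3 IAKA mice with both libraries gave ratios of 2.74 to 3.00 for Nupr1 and 2.45 to 2.51 for Ddit3. The 1 PBS mouse with both libraries gave 2.04 for Nupr1 and 1.74 for Ddit3.

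By edgeR, Nupr1 was enriched in the m6A pulldown over input in IAKA mice, by 1.45 on the log2 scale (SE 0.38, adjusted P = 0.0364). It was the 1 gene called among the 9 tested, where 3.08% of 16141 genes were called 2.17% higher and 0.911% lower in the pulldown. Its call was lost, with an adjusted P up to 0.111, when single libraries were left out: m6A mice 5, 7 or 9, or input mice 5, 6, 9 or 21. With the mouse as a block, which pairs the libraries of an animal, the log2 fold change of Nupr1 was 1.38 (SE 0.21) and the adjusted P from edgeR 0.00462. In PBS mice, where 2.31% of genes were called (1.18% higher in the pulldown), none of the 9 was: Nupr1 had 1.24 (SE 0.51, adjusted P = 0.185) and Ddit3 1.12 (SE 0.38, adjusted P = 0.117), and these 2 of 9 genes passed an unadjusted P of 0.05, as did 19.8% of all genes. Voom called Ddit3 among 2023 genes, and DESeq2 none of the 9 and 900 genes in all. Ddit3 in IAKA mice had 1.02 (SE 0.29, adjusted P = 0.0573), and 0.85 (adjusted P = 0.0687) with the mouse as a block. Leaving out each of 12 libraries in turn gave 0.89 to 1.23, with an adjusted P of 0.00179 (without the m6A library of mouse 6) to 0.166, and 3 of the 12 fits called it.

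Atf4 and Asns had ratios on both sides of 1. The Atf4 level in m6A was 0.891 to 1.25 times that in input in the 6 IAKA mice of 2 weeks (median 0.973), 1.09 to 1.43 times in the 3 PBS mice, and 1.21 to 1.64 times in the 3 IAKA mice of 24 hours. In the 1 PBS mouse of 24 hours with both libraries the ratio of Atf4 was 1.34. At 2 weeks its log2 fold change was -0.16 (SE 0.19) in IAKA and -0.14 (SE 0.24) in PBS mice, and the sign turned in PBS mice under voom (0.048), library size scaling (0.10) and the mouse block (0.072), and in IAKA mice under library size scaling (0.020). Asns was at 0.654 to 1.33 times the input level in IAKA mice (median 0.691) and at 0.845 to 1.19 times in PBS mice (median 1.02). Its log2 fold changes were -0.46 (SE 0.26) in IAKA and -0.61 (SE 0.32) in PBS mice. With the mouse as a block, which leaves out PBS mice 50 and 78, they were -0.47 (SE 0.17) and -0.23 (SE 0.23). By edgeR neither gene was called in either treatment, and voom called Asns in IAKA mice (-0.56, adjusted P = 0.0434). The difference between treatments in pulldown over input was called for none of the 9 genes and none of 16141 genes (0%) by edgeR, none of the 9 and 4.06% of all genes passed an unadjusted P of 0.05, and DESeq2 and voom called none of the 9. For Nupr1 that difference was 0.22 (SE 0.62) and for Sesn2, the farthest from 0 apart from Atf3 (-1.18, SE 1.24), it was -1.04 (SE 0.53).

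**Figure D4:**
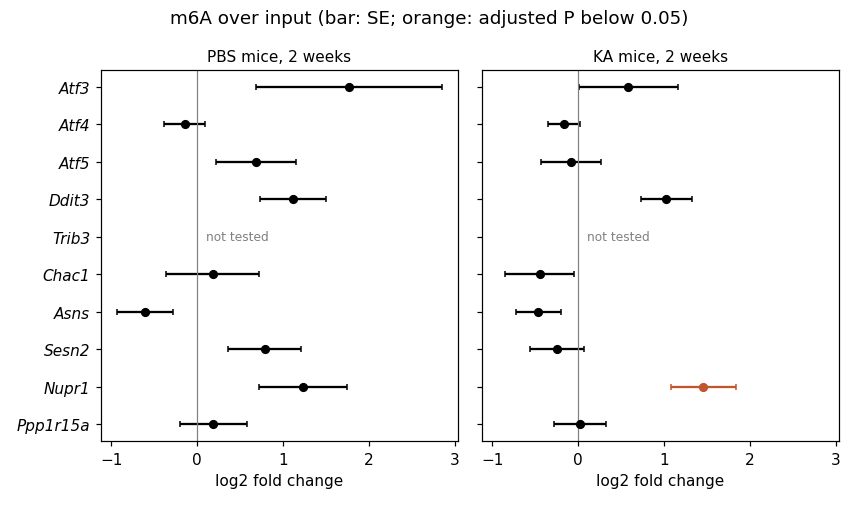
edgeR log2 fold change of m6A over input at 2 weeks in PBS and IAKA mice, with the SE as a bar and an adjusted P below 0.05 in orange. Nupr1 in IAKA mice (1.45) is the orange point, and Ddit3 lies at 1.12 and 1.02.

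The wider pathway was followed in 6 further lists. None of their genes was called by edgeR between IAKA and PBS, in either assay at either time. In the m6A libraries at 24 hours log2 fold changes were above 0 for 9 of 14 eIF2 kinases and phosphatase partners (median 0.11), 9 of 11 eIF2 and eIF2B subunits (0.16) and 17 of 22 tested bZIP factors and other partners (0.50). They were above 0 for 20 of 25 amino acid synthesis and transport genes (0.24), all 21 cytosolic aminoacyl-tRNA synthetases (0.34) and 24 of 27 chaperones and factors of the ATF6 and IRE1 arms (0.51), beside the all-gene median of 0.083. Over all genes 58.0% were above 0. At an unadjusted P of 0.05 these lists held 0, 0, 5, 4, 1 and 4 genes in the order given, beside 5.31% of all genes. The log2 fold changes of the tRNA synthetases, the enzymes that charge tRNAs with amino acids, lay close together, between 0.07 and 0.53.

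In input at 24 hours, against 1 PBS mouse, the tRNA synthetases did not show that one-sided pattern, with 8 of 21 above 0 (median -0.05). Amino acid genes had 19 of 25 above 0 (median 0.46) and ATF6 and IRE1 genes 19 of 26 (0.41). For bZIP factors and other partners it was 14 of 20 (0.61). The eIF2 kinases and phosphatase partners had 7 of 14 above 0 (-0.01) and the eIF2 and eIF2B subunits 3 of 11 (-0.12). Over all genes 65.9% were above 0, with a median of 0.27. At 2 weeks the list medians ran from -0.06 to 0.10 in m6A libraries and from -0.04 to 0.14 in input. Mthfd2 and Aldh1l2, mitochondrial folate enzymes, and the glutamine transporter gene Slc1a5 were singled out after their values were seen. Their log2 fold changes in the m6A libraries at 24 hours were 1.66 (edgeR adjusted P = 0.283), 1.49 (0.567) and 1.71 (0.535).

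In the pulldown over input at 2 weeks, 5 genes of these lists were named because they passed the test in PBS or IAKA mice. As above, assay and file set cannot be told apart. Over all 16141 genes, 2.31% were called in PBS and 3.08% in IAKA mice. In PBS mice 1 of 21 bZIP factors and partners, 1 of 25 amino acid genes and 1 of 26 ATF6 and IRE1 genes were called. In IAKA mice 1 of 14 eIF2 kinases and partners and 2 of 26 ATF6 and IRE1 genes were. None of the 11 eIF2 and eIF2B subunits or 21 tRNA synthetases was called in either treatment. Pdia4, a disulfide isomerase of the endoplasmic reticulum, was enriched in both, by 1.41 in PBS (SE 0.23) and 1.15 in IAKA mice (SE 0.17) on the log2 scale, with edgeR adjusted P of 0.00260 and 0.00160. Its level was 193 ± 40.0 CPM (SD, n = 5) in m6A and 61.8 ± 7.38 (SD, n = 3) in input of PBS mice. Jdp2, a bZIP repressor, was enriched in PBS mice by 1.44 (SE 0.38, adjusted P = 0.0498), and Psat1, a serine synthesis enzyme, was lower in the pulldown (log2 fold change -0.87, SE 0.20, adjusted P = 0.0264). Dnajb9, a chaperone of the endoplasmic reticulum, and Nck1, an adaptor that binds the eIF2 phosphatase, were enriched in IAKA mice by 0.88 (SE 0.19, adjusted P = 0.0142) and 0.74 (SE 0.18, adjusted P = 0.0292). The difference between treatments was not called for any of these 5 genes, so a call in 1 treatment alone marks no difference. Leaving out single libraries was not read for them. Over all genes it gave 53 to 647 calls in PBS and 214 to 1036 in IAKA mice.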

How the data were processed

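The authors deposited raw read counts per gene symbol for 4 sequencing lanes of each library, without normalization, from a stranded total RNA kit. Per the labels the build was mm10, while aligner, counting program and strand setting were not given in the sources used here. The 140 lane columns of 35 libraries were summed, and 8 columns of mice that the labels list without an input library were not used. Of 16 input libraries, 3 had fewer than 100000 counts and were left out of the main fits. Columns with the prefix 3, 4 or 5 were read as m6A libraries.

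Comparisons used edgeR 4.0.16 in R 4.3.3 with TMM scaling, filterByExpr, robust quasi-likelihood fits and Benjamini-Hochberg adjustment at 0.05 over all genes tested. SEs were obtained as |log2 fold change| over the root of the F statistic. Input at 24 hours was fitted with all 13 deep input libraries, so its lone PBS mouse was assumed to vary like the other groups. Each library is 1 mouse, and no 2 libraries of a group were alike within counting noise. DESeq2 1.42.0, limma 3.58.1 and other settings were alternatives, and the scripts were tested on simulated data. Mouse numbers pair m6A with input libraries, since a number is 1 animal, and deviations from the group means correlated by -0.0134 to 0.506 over 9 mice at 2 weeks. IAKA and PBS groups share no mice. The 10 genes, the lists and the motifs were chosen with earlier results of these data known. From each list up to 2 genes per comparison were named, those with the smallest P past the threshold, and any other gene is marked as chosen after its values were seen. Promoter windows and gene positions are from RefSeq (GRCm38.p6), where all 10 genes matched.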

Additional observations from a re-analysis of the deposited data

Results flagged for a closer look

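In 4 of 40 tested combinations of gene and group, 1 mouse stood apart from the others by a criterion that chance meets in about 1 of 20 groups. Chac1 was at 4.45 CPM in the m6A library of IAKA mouse 7 at 2 weeks, against 2.10 CPM in the next mouse. In the input library of the same mouse Chac1 was at 5.37 CPM, against 2.19 CPM in the next. That mouse also had the highest Nupr1 and Atf4 levels of its group in both assays. Sesn2 was at 19.0 CPM in the m6A library of IAKA mouse 79 at 24 hours, against 8.32 CPM in the next mouse. Atf3 had 0 counts in the m6A library of PBS mouse 4 at 2 weeks, against 0.916 CPM in the next mouse, and 3 counts of that library allow up to 0.456 CPM. The cause of each was not tested.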

How the results depend on the processing

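Nupr1 and Atf3 kept log2 fold changes above 0 in the m6A libraries at 24 hours in all 17 alternatives, at 2.32 to 2.79 and 2.63 to 3.84. Their calls did not hold still. In that comparison edgeR called 0 of the 9 tested genes, DESeq2 called 2, voom with quality weights 3, edgeR without a filter on low counts 1, all 4 m6A groups in 1 fit 1, and the prefix 4 libraries alone (chosen after the data were seen) 2, and leaving out single libraries gave 0 to 1. Over all genes the same fits called 1, 156, 1120, 22, 31 and 356 genes, scaling by library size called 3, the column prefix as a block 0, and leaving out single libraries 0 to 45 (45 without IAKA mouse 8, 0 without PBS mouse 71 or 73).

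In input at 24 hours voom called 2 of the genes, and leaving out single libraries none. Over all genes DESeq2 called 201, voom 1076, all labelled input libraries 8, no filter 3, adjusted degrees of freedom 2, library size scaling 1 and the input file set as a block 2, against 0. Without IAKA mouse 8 it was 180, and 1 without mouse 67 or 98. At 2 weeks, against 0 genes each, DESeq2 called 15 in m6A and 113 in input, voom 2 and 342, no filter 2 and 4, and 1 fit of all m6A groups 1. For the change between times DESeq2 called 5 genes, voom 62 and the prefix block 2, against 1.

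For m6A over input in PBS mice voom and library size scaling each called 1 of the genes (Ddit3), against 0. In IAKA mice, against 1, DESeq2 called 2, voom 3, library size scaling 2 and no filter 2, and leaving out single libraries gave 0 to 2. Over all genes the PBS count was 373 and became 900 with DESeq2, 2023 with voom, 1036 with library size scaling and 244 without a filter. The IAKA count was 497 and became 918, 4460 and 1319 under the first 3 of these. Leaving out single libraries gave 53 (without input mouse 3) to 647 (without m6A mouse 4) in PBS mice and 214 (without m6A mouse 9) to 1036 (without m6A mouse 42) in IAKA mice. Library size scaling moved the all-gene median from 0.07 to 0.31 in PBS and from -0.01 to 0.19 in IAKA mice, and that of input at 24 hours from 0.27 to -0.04. With the mouse as a replicate block, which pairs the assays, 265 genes were called in PBS mice, 1544 in IAKA mice and 1 for the difference, where DESeq2 without the block called 4 and edgeR 0, and no call of the 10 genes changed.

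Directions turned only for genes whose difference was not called. In m6A libraries at 2 weeks voom gave -0.052 for Atf4, -0.15 for Asns and 0.0032 for Ppp1r15a. The prefix block there gave -0.012 for Atf4, 0.28 for Atf5, -0.21 for Asns and 0.42 for Ppp1r15a, and prefix 5 alone 0.29 for Atf5, -0.19 for Asns and 0.44 for Ppp1r15a. Only prefix 5 held both treatments, so these fits rest on the same libraries and are not separate estimates. In input at 24 hours library size scaling gave -0.12 for Ddit3. In input at 2 weeks Asns was -0.00024 (DESeq2), -0.049 (voom), -0.0099 (library size), -0.012 (1 fit), -0.18 (file set block) and -0.18 (first file set), Ppp1r15a -0.078 (voom) and Atf4 -0.13 (file set block) and -0.13 (first file set). The PBS libraries were all of the first file set, so its block and that set alone are not separate estimates either. For the difference of m6A over input, voom gave 0.13 for Ddit3, -0.20 for Asns and 0.13 for Ppp1r15a, no filter 0.0098 for Atf4, and the mouse block -0.24 for Asns and 0.23 for Ppp1r15a. In PBS mice m6A over input for Atf4 was 0.048 (voom), 0.10 (library size) and 0.072 (mouse block), and for Ppp1r15a -0.012 (voom) and -0.29 (mouse block). In IAKA mice Atf4 was 0.020 and Atf5 0.14 (library size), Atf5 0.0019 (no filter) and Ppp1r15a -0.060 (mouse block).

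Leaving out single libraries turned directions within these ranges. Atf5 ran from -0.11 to 0.76 in m6A at 24 hours. In m6A at 2 weeks Atf4 ran from -0.025 to 0.25, Ddit3 from -0.042 to 0.27, Chac1 from -0.50 to 0.12, Asns from -0.051 to 0.36 and Ppp1r15a from -0.26 to 0.084. In input at 2 weeks Atf4 ran from -0.026 to 0.22, Asns from -0.15 to 0.090 and Ppp1r15a from -0.076 to 0.20. For the difference of m6A over input the ranges were -0.13 to 0.15 (Atf4), -0.23 to 0.11 (Ddit3), -0.048 to 0.37 (Asns), -0.056 to 0.53 (Nupr1) and -0.34 to 0.0087 (Ppp1r15a). In PBS mice Chac1 ran from -0.15 to 0.37, and in IAKA mice Atf5 from -0.32 to 0.092 and Ppp1r15a from -0.11 to 0.19. The cause of these shifts was not tested. Depth limits Trib3 in all comparisons, Atf3 and Chac1 in input at 2 weeks, and the low genes of IAKA mice 67 and 98.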
